A study of Mus musculus with 48 samples.

Results

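The pituitary comparison set 8 libraries of heat-stressed mice against 8 libraries of control mice, and its members were the genes with a mean level of at least 1 FPKM (fragments per kilobase of transcript, scaled to the depth of the library) over those 16 libraries. This rule kept 14095 of the 58913 genes in the deposited tables, and the 16 libraries belong to a series of 48 that also holds hypothalamus and mammary gland. All animals were lactating dams of ICR, an outbred mouse stock, 10 weeks old and on day 13 of lactation. Control dams were kept at 25 °C and heat-stressed dams at 36 °C in a climate incubator, both at a relative humidity of 55%, and tissue was taken straight after treatment. The hours or days spent at 36 °C are not stated in the labels, and neither group carried a transgene or a drug. The labels call the libraries biological replicates of dams and number them from 1 to 8, without saying whether a library is 1 gland or a pool, so the p-values measure the spread between these libraries. The depth recovered from the FPKM was 12626694 to 16378739 fragments on annotated genes in controls and 10893061 to 17246510 in heated libraries, and 3 fragments in a gene of 1 kb correspond to 0.110 to 0.167 FPKM.

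Cells that overheat accumulate misfolded proteins. Heat shock factor 1, a transcription factor held inactive by chaperones, is then released, forms trimers and binds heat shock elements, arrays of the unit GAA and its inverse TTC, in the promoters of chaperone genes. The pituitary gland joins an anterior lobe of hormone-secreting cells, an intermediate lobe whose melanotrophs make peptides of the precursor Pomc, and a posterior lobe of axon endings and pituicytes. In lactation its lactotrophs secrete prolactin, which sustains milk synthesis.

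Some of the chaperone genes that rose carried these elements in their promoters, 13 of the 22 with a listed window, and 5 such windows are shown because they hold the letters that heat shock factor 1 is known to bind. Each window runs from 250 bases before to 50 bases after the annotated start, 5′ to 3′ on the strand of the gene, from RefSeq on GRCm38.p6, and capitals mark each match of GAANNTTC or TTCNNGAA. Hspa1b, an inducible HSP70, lies on the minus strand at chr17:34959189-34959488. Hspb1, a small heat shock protein, lies on the plus strand at chr5:135887669-135887968. Hsph1, an HSP110, lies on the minus strand at chr5:149636287-149636586. Chordc1, a co-chaperone of HSP90, lies on the plus strand at chr9:18292017-18292316. Hspe1, the lid of the mitochondrial chaperonin, lies on the plus strand at chr1:55087898-55088197.
Hspa1b: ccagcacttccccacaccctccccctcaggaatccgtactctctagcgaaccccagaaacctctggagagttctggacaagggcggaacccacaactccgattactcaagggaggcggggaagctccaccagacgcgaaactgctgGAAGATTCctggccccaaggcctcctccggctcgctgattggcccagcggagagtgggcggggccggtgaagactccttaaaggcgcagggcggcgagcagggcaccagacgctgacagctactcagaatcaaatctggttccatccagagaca
Hspb1: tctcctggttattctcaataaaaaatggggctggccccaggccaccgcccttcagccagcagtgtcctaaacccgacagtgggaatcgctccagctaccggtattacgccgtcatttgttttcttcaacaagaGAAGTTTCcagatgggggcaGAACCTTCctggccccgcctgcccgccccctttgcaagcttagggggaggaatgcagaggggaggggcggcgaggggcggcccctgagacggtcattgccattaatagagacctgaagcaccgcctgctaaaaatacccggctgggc
Hsph1: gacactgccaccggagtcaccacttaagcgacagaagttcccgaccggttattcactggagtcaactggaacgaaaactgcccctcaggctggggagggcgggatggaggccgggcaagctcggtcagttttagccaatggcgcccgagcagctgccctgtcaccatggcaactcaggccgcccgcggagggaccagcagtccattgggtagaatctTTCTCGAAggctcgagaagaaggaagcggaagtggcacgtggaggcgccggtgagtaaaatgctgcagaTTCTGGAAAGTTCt
Chordc1: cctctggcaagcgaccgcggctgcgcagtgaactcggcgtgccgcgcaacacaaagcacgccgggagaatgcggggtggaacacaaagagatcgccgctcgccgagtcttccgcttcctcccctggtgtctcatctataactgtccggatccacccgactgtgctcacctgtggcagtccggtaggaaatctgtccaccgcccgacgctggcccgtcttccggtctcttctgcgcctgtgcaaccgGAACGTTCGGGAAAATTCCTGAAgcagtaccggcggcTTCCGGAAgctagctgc
Hspe1: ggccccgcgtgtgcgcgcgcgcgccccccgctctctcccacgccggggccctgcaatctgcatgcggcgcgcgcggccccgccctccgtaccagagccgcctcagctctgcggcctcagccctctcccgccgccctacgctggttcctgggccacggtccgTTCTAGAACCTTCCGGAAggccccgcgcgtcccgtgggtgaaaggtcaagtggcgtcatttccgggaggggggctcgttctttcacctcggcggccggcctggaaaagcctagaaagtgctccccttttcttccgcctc

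These windows held 1 match of the 2-unit element in Hspa1b, 2 in Hspb1, 3 in Hsph1, 5 in Chordc1 and 3 in Hspe1, counting overlapping matches. Matches that overlap can form the 3-unit element GAANNTTCNNGAA or its reverse TTCNNGAANNTTC, of which Hsph1 held 1, Chordc1 3 and Hspe1 2. The promoter of Hspd1, the barrel of the same chaperonin, was listed with a window on the opposite strand at chr1:55087883-55088182 that overlaps that of Hspe1 and held the same number of matches; a second listed window of Hspd1, at chr1:55088194-55088493 on the same strand, held none. The window of Hspa1a differed from that of Hspa1b at 4 of 300 bases, and the windows of Dnajb1 held no match of these letters. Stip1, Serpinh1, Ahsa2, Dedd2 and Cacybp, which are also among the 20 largest rises, held none either. Prl, which fell, held 2 matches of the 2-unit element. Both strands were searched, and a gene with several windows was counted by the one with most matches. Of the 32851 listed windows, 15.1% held a 2-unit and 0.603% a 3-unit match. Among the tested genes 9371 had a window, of which 13.3% held a 2-unit and 0.555% a 3-unit match. Of the 227 genes with a window that rose in heat, 17.2% held a 2-unit match and 2.20% a 3-unit match, the latter being Hsph1, Chordc1, Hspe1, Hspd1 and Slc35c1. None of the 121 genes that fell held a 3-unit match, while 14.9% held a 2-unit match. Among the genes that rose, 22 were on the chaperone lists described below, and of these 13 held a 2-unit and 4 a 3-unit match. Of all 64 tested chaperone-list genes with a window, called or not, 21 held a 2-unit match (32.8%) and 5 a 3-unit match. The matches of Hspe1 and Hspd1 lie in shared sequence, and the windows of Hspa1a and Hspa1b are near-identical. The counts and shares of genes that rose therefore include some sequence more than once.

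The labelled tissue was checked against marker genes. Pomc was listed between 2206 and 99265 FPKM, Cga, the subunit shared by the glycoprotein hormones, between 377 and 1222, Lhb, the beta subunit of luteinizing hormone, between 99.2 and 595, and Pou1f1, the transcription factor of somatotrophs, lactotrophs and thyrotrophs, between 33.8 and 95.0. These genes mark pituitary cells. Gh, growth hormone, reached only 31.3 FPKM and Prl, prolactin, only 44.5 FPKM, although both are textbook products of the anterior lobe, so the values of these genes stand against the abundance expected of the label. Hba-a1 and Hba-a2 were listed at 0 in all 16 libraries, and Cd3e, Crh and Opalin were at or near 0. Other genes of the same marker lists were present. Alas2 of red blood cells ran from 1.55 to 17.4 FPKM and Gal of the hypothalamic neuron list from 28.7 to 128. Mbp of oligodendrocytes ran from 2.76 to 7.94 and Lck of lymphocytes from 0.992 to 2.10. The absence of these cell types is therefore not shown. Of the posterior lobe, Avp ran from 0 to 134 FPKM and Oxt from 0.387 to 138, and Rax, a pituicyte transcription factor, from 0.0498 to 13.5.

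Libraries stood apart in ways that the groups do not explain. The first principal component held 43.3% of the variance and separated the libraries numbered 1 to 3 from those numbered 4 to 8 within each group, while the second held 12.3%. The labels name no batch for these numbers, so the split is given only as the numbers. A score of intermediate lobe genes was lowest in control replicate 1, at 1.77, and heat replicate 3, at 2.69, against 3.69 to 5.66 in the other 14 libraries. Both libraries also had the lowest Pomc value of their group, a gene left out of the score. Their Pax7, which is part of the score, was the lowest of the group too. So was their Scn7a, a gene of the pituicyte and astrocyte list. In whole glands, fewer cells of a type and less RNA per cell cannot be told apart.

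Heat raised 334 genes and lowered 200 of the 14095 tested, 534 in all or 3.79%, of which 2.37% were higher and 1.42% lower. The test was limma on log2(FPKM + 1), 2-sided, with a Benjamini-Hochberg adjusted p under 0.05, and every log2 change below is heat minus control on that scale, which understates the change of genes near 1 FPKM. The median change of all tested genes was 0.0045. The rises had a median of 0.44 and the falls of −0.39 log2 units, and 347 of the 534 changes were smaller than 0.5. Only 37 rises reached 1 and 5 falls reached −1. In 112 of the 334 rises the lowest heated library was above the highest control, and in 48 of the 200 falls the highest heated library was below the lowest control. Of all 14095 tested genes, 0.802% and 0.362% were separated in these directions. Among the 534 genes 416 were protein coding and 57 were loci of the authors with no gene name.

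**Figure D1:**
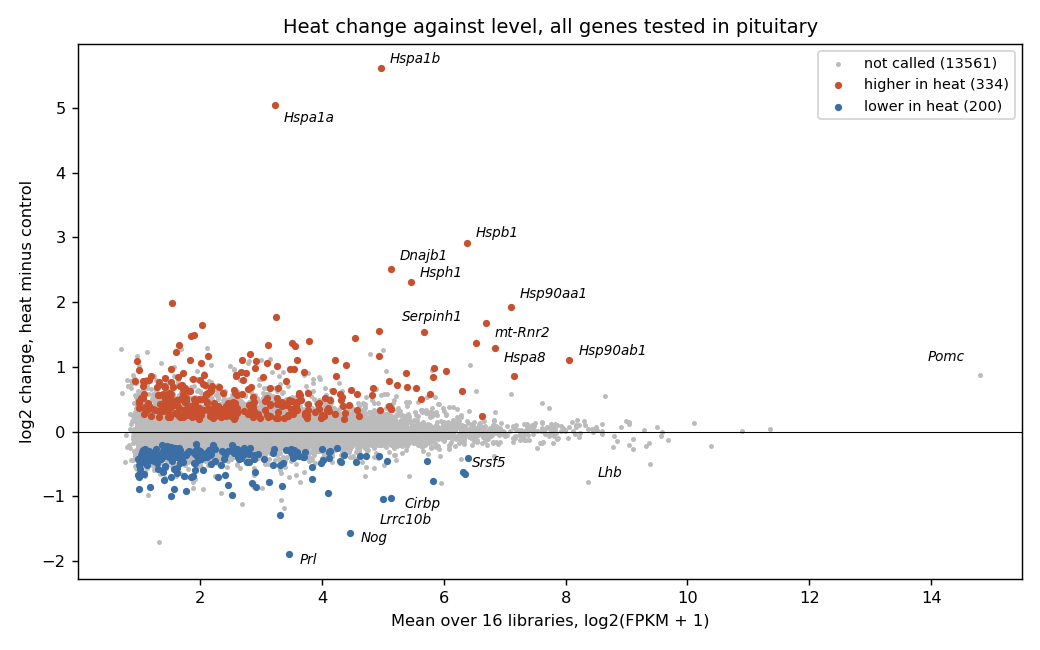
Heat change (log2, heat minus control) of each of the 14095 tested genes against its mean over 16 libraries, log2(FPKM + 1). Orange points are the 334 genes called higher, blue points the 200 called lower and grey points the rest; Hspa1b at 5.61 and Hspa1a at 5.04 stand above all others, and Prl at −1.90 is the lowest called gene.

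The count of calls depended on the libraries. Without heat replicate 3, 910 genes were called. Without control replicate 5, heat replicate 4 or heat replicate 5 the counts were 331, 336 and 343. Libraries numbered 4 to 8, 5 against 5, gave 1399 calls, and those numbered 1 to 3, 3 against 3, gave 0, although 1588 genes had an unadjusted p under 0.05 in the same limma fit. A term for the 2 sets of numbers gave 1721 calls, 1025 higher and 696 lower, or 7.27% and 4.94% of genes tested, which included all 534.

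Chaperones led the response. On 5 lists of cytosolic and mitochondrial chaperones, 28 of 75 tested genes rose, or 37.3% against 2.37% of all genes, and none fell. Their levels summed to between 0.725% and 0.883% of all FPKM in controls, with a median of 0.764%, and to between 1.01% and 2.18% in heated libraries, with a median of 1.44%. The groups did not overlap in this share. Pomc takes a large and varying part of the total. With Pomc left out, the share was 0.845 to 0.998% in controls and 1.2 to 3.15% in heated libraries. Of the 28 genes, 18 had groups that did not overlap, while 0.802% of all tested genes had every heated library above every control.

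The HSP70 family binds exposed hydrophobic stretches of unfolded proteins, and HSP110 proteins exchange its nucleotide. Of 11 tested members 5 rose, none fell, and the median change was 0.21. Hspa1b measured 2.34, 3.26 and 7.03 FPKM in controls (lowest, median and highest of 8) and 31.3, 257 and 627 FPKM in heated libraries. Every heated library was above every control, the change was 5.61 ± 0.45 (SE, adjusted p = 8.01e-06), and the ratio of mean FPKM was 78.8. Its near-identical neighbour Hspa1a went from 0.358, 0.681 and 0.964 FPKM to 5.90, 61.7 and 172 FPKM, also without overlap. The change was 5.04 ± 0.48 (SE, adjusted p = 5.03e-05), and the ratio of mean FPKM was 117. The log2 scale understates change at the control levels of Hspa1a, so these changes do not rank the pair. How fragments that match both copies were counted is not given in the sources used here, so the share of each copy is uncertain. Hsph1 rose from 13.9, 19.9 and 23.6 FPKM to 52.3, 89.2 and 246 FPKM, a change of 2.30 ± 0.26 (SE, adjusted p = 0.000133). Hspa8, the constitutive HSP70 of the cytosol and the most abundant member at 25 °C of these 4, moved from 62.0, 70.9 and 96.5 FPKM to 124, 161 and 284 FPKM, a change of 1.29 ± 0.16 (SE, adjusted p = 0.000262). The groups of both genes were separate. The fifth member was Hspa4l, another HSP110, with a change of 0.92 ± 0.14 (SE, adjusted p = 0.00157). Hspa4 at 0.16 and the mitochondrial Hspa9 at −0.00017 log2 units were not called (adjusted p = 0.513 and 1.00).

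**Figure D2:**
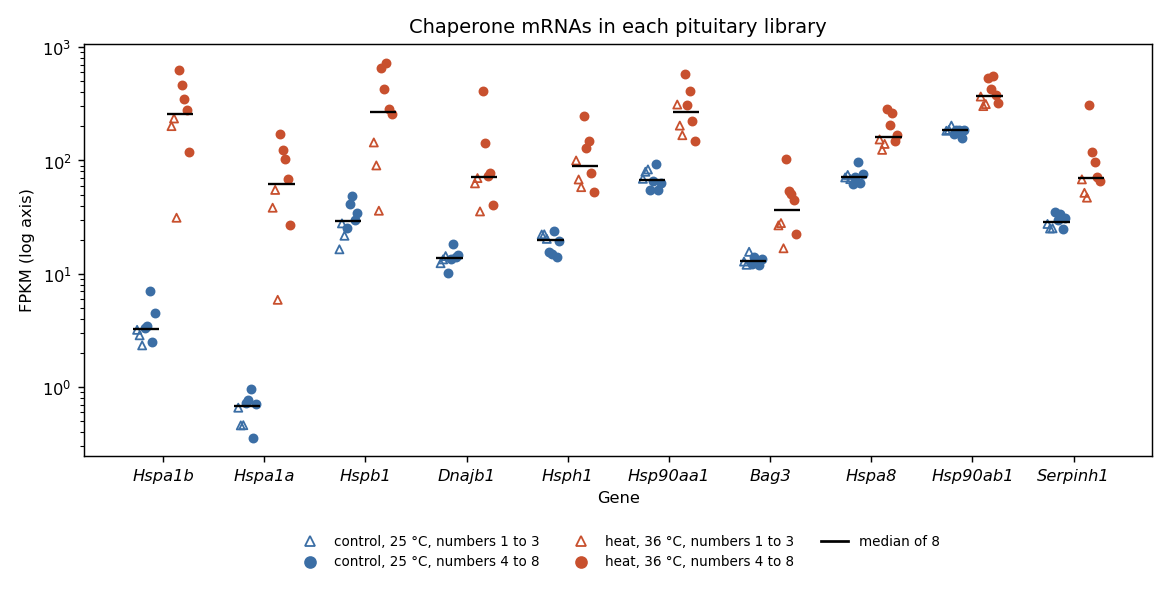
FPKM on a log axis of 10 chaperone genes in every pituitary library, 8 control (blue) and 8 heated (orange); open triangles are libraries numbered 1 to 3, filled circles those numbered 4 to 8, and bars are medians. Hspa1b lay between 2.34 and 7.03 in controls and between 31.3 and 627 in heated libraries, while Hspb1 is the gene whose groups met, with a heated library at 36.0 among controls of up to 48.8.

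HSP40 proteins deliver clients to HSP70 and stimulate its ATPase. Of 13 tested members 5 rose and none fell (median 0.06). Dnajb1 measured 10.2, 13.7 and 18.4 FPKM in controls and 35.5, 71.4 and 413 FPKM in heat. The groups were separate, and the change was 2.51 ± 0.37 (SE, adjusted p = 0.00109). Dnaja1 went from 13.6, 17.3 and 20.7 FPKM to 32.3, 48.8 and 104 FPKM, again with no overlap, a change of 1.55 ± 0.20 (SE, adjusted p = 0.000441). Dnaja4 rose by 1.06 ± 0.17 (SE, adjusted p = 0.00241), with 44.1% of its exon bases shared with another annotated gene, so its level is uncertain. Dnajb2 and Dnajb4 rose by 0.72 and 0.68 (adjusted p = 0.00682 and 0.00715).

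HSP90 completes the folding of kinases and steroid receptors with a set of co-chaperones. This list had the most calls of the chaperone lists, 10 of 23 members higher and none lower, with a median of 0.25. The inducible Hsp90aa1 measured 54.7, 67.5 and 92.3 FPKM in controls and 148, 265 and 577 FPKM in heated libraries, and the constitutive Hsp90ab1 158, 185 and 203 FPKM and 302, 373 and 552 FPKM. Neither gene's groups overlapped. Their changes were 1.93 ± 0.23 (SE, adjusted p = 0.000262) and 1.10 ± 0.12 (SE, adjusted p = 0.000133). Among co-chaperones, Stip1, which bridges HSP70 and HSP90, rose from 46.6, 56.5 and 64.7 FPKM to 91.5, 142 and 261 FPKM, by 1.37 ± 0.19 (SE, adjusted p = 0.000685). Chordc1, whose window shown above holds 3 overlapping matches of the 3-unit element in 1 stretch, rose from 5.11, 6.56 and 7.69 FPKM to 12.5, 17.2 and 26.6 FPKM, by 1.32 ± 0.14 (SE, adjusted p = 0.000116). The groups of both were separate. Ahsa1, the activator of the HSP90 ATPase, rose by 1.02 ± 0.17 (SE) and Ahsa2 by 1.76 ± 0.23 (SE, adjusted p = 0.00255 and 0.000441); 50.2% of the exon bases of Ahsa2 are shared with another gene. The immunophilin Fkbp4, the p23 protein Ptges3, the HSP70-interacting St13 and the cyclophilin Ppid rose by 0.94, 0.78, 0.68 and 0.28. Ppid was called in 5 of the 16 fits that left out 1 library and not in the fit over all 48 libraries.

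Small heat shock proteins hold unfolded proteins in a refoldable state. Of 12 members of this list, which includes the BAG nucleotide exchange factors, 3 rose and none fell (median 0.02). Hspb1 measured 16.5, 29.0 and 48.8 FPKM in controls and 36.0, 269 and 729 FPKM in heat. Heat replicate 3, at 36.0, was the one heated library inside the control range, and the change was 2.92 ± 0.50 (SE, adjusted p = 0.0029). Bag3, a partner of HSP70 in selective autophagy, went from 12.0, 12.9 and 15.6 FPKM to 16.8, 36.4 and 104 FPKM with separate groups, a change of 1.44 ± 0.27 (SE, adjusted p = 0.00629). Cryab, alpha-B crystallin, rose by 0.96 ± 0.22 (SE, adjusted p = 0.0198); the exact Wilcoxon test did not call it (adjusted p = 0.136). Hspb8, at 1.10 log2 units, was not called (adjusted p = 0.107).

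Chaperonins fold proteins inside a closed ring. Of 16 members 5 rose and none fell (median 0.25): Hspe1 and Hspd1 of mitochondria and Cct3, Cct5 and Cct7 of the cytosolic ring. Hspe1 measured 32.9, 39.3 and 49.3 FPKM in controls and 47.5, 70.0 and 169 FPKM in heat, and Hspd1 34.1, 39.0 and 52.9 FPKM and 41.9, 72.0 and 138 FPKM. Both pairs of groups touched, and the changes were 0.98 ± 0.22 (SE, adjusted p = 0.0178) and 0.85 ± 0.20 (SE, adjusted p = 0.0224). Cct7 rose by 0.68 ± 0.16 (SE) with separate groups (adjusted p = 0.0279), and Cct5 and Cct3 by 0.39 and 0.49. Of the 16 fits that left out 1 library, 10 called Cct7, 13 Cct5 and 14 Cct3; Cct7 was lost without control replicate 2, 4, 5 or 7 or heat replicate 4 or 5.

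The size of the chaperone response differed between heated libraries. Heat replicate 4 was the highest heated library for 19 of the 28 risen chaperone genes and heat replicate 6 for the other 9. Heat replicate 3 was the lowest for 12, replicate 8 for 8, replicate 2 for 6 and replicate 7 for 2. Among the controls, replicate 6 was the highest for 15 of the 28. All 28 changed more in libraries numbered 4 to 8 than in those numbered 1 to 3, against 48.7% of all tested genes and 233 of the 334 genes that rose. For Hspa1b the change was 4.93 in libraries 1 to 3 and 6.02 in libraries 4 to 8, for Hspb1 1.81 and 3.58, for Dnajb1 1.93 and 2.85, and for Hsp90aa1 1.5 and 2.18. Whether the sets differ in exposure, dissection or handling was not tested.

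The mRNAs of the regulators themselves did not pass the test. Hsf1, which encodes heat shock factor 1, measured 4.49, 6.67 and 8.43 FPKM in controls and 4.49, 8.88 and 14.2 FPKM in heat, a change of 0.24 ± 0.18 (SE, adjusted p = 0.557). Hsf2 differed by 0.11 ± 0.066 (SE, adjusted p = 0.442). On the list of heat shock factors and ubiquitin genes 0 of 14 members were called, with Zfand2a, an arsenite- and heat-inducible proteasome adaptor, at 0.29 ± 0.085 (SE, adjusted p = 0.0752). None of 47 proteasome subunits was called (median −0.06), and Psma7 had the smallest adjusted p among them (−0.17, adjusted p = 0.218). The chaperones of the endoplasmic reticulum gave the same count, 0 of 26 (median −0.02). Hspa5, the HSP70 of that compartment, measured 176, 195 and 245 FPKM in controls and 162, 198 and 251 FPKM in heat, so the groups covered the same range. Herpud1 stood at 0.36 ± 0.11 (SE, adjusted p = 0.0938), and Ddit3 of the integrated stress response, a list with 0 of 25 called, at 0.41 ± 0.15 (SE, adjusted p = 0.148). A term for the library numbers called Zfand2a and Herpud1 (adjusted p = 0.02 and 0.0453), with 3 rises among the 26 genes of the endoplasmic reticulum. A p that misses the threshold does not show that these genes were equal.

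**Figure D3:**
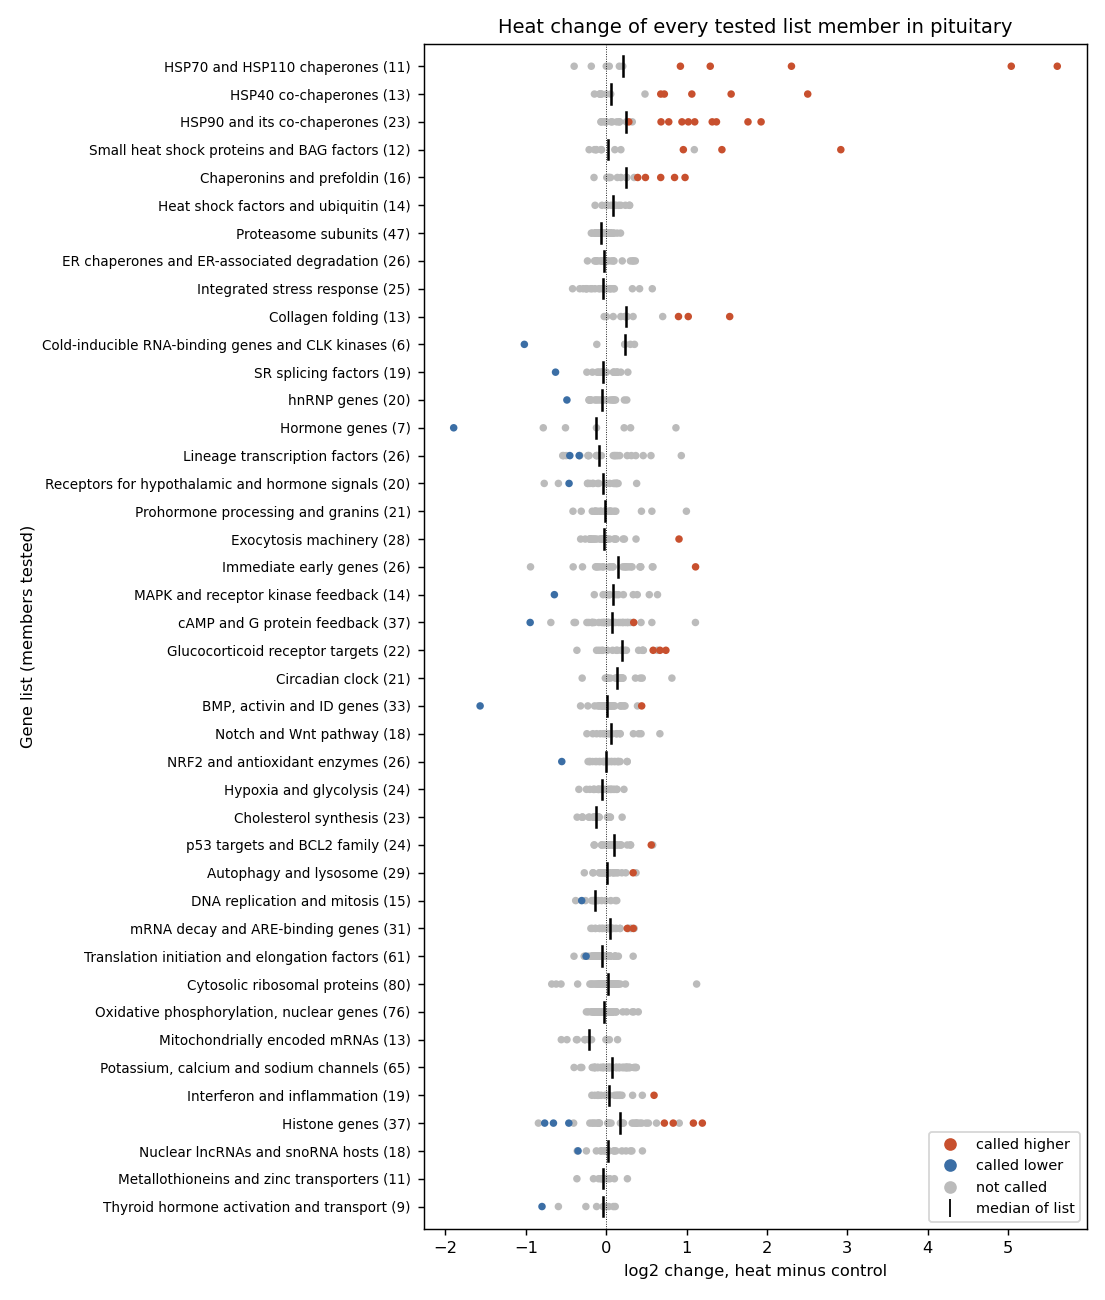
Heat change (log2, heat minus control) of each tested member of 42 gene lists, one list a row with the number tested, coloured by call; black ticks are list medians. Calls of the chaperone lists lie to the right, up to 5.61, and 14 lists hold no called member.

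Outside the chaperone lists 306 genes rose. Collagen-folding genes were among them, 3 of 13 members higher and none lower (median 0.25). Serpinh1, the collagen chaperone HSP47, measured 24.8, 28.7 and 35.4 FPKM in controls and 47.0, 70.0 and 310.0 FPKM in heat, without overlap, a change of 1.54 ± 0.29 (SE, adjusted p = 0.00592). Plod1, a collagen lysyl hydroxylase, rose by 1.02 ± 0.21 (SE) and P4ha1, a prolyl hydroxylase subunit, by 0.90 ± 0.15 (SE, adjusted p = 0.0119 and 0.00241); both had separate groups. Dedd2, a death effector domain protein, went from 6.36, 7.61 and 8.82 FPKM to 10.7, 21.8 and 45.1 FPKM, and Cacybp, the calcyclin-binding protein, from 14.9, 19.0 and 24.8 FPKM to 32.8, 42.9 and 71.2 FPKM. The groups were separate for both, with changes of 1.41 ± 0.21 (SE) and 1.2 ± 0.17 (SE, adjusted p = 0.00109 and 0.00109). Ccdc117 rose by 1.11 ± 0.15 (SE, adjusted p = 0.00045). Plekhh1 had one of the smallest adjusted p-values (5.54e-05): it measured 1.44, 1.74 and 2.30 FPKM in controls and 2.99, 3.98 and 4.48 FPKM in heat. Rbm14, a paraspeckle protein, rose by 0.70 ± 0.077 (SE, adjusted p = 0.000125). Neither gene's groups overlapped.

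A pair of tumour necrosis factor superfamily genes rose from low levels. Tnfsf9, the ligand of 4-1BB, went from 0.657, 1.11 and 2.29 FPKM to 2.18, 4.63 and 10.7 FPKM, a change of 1.47 ± 0.25 (SE, adjusted p = 0.00255), with groups that barely met. Tnfrsf25, the death receptor DR3, went from 0.347, 1.14 and 2.62 FPKM to 0.551, 7.32 and 11.7 FPKM with overlapping groups, a change of 1.49 ± 0.39 (SE, adjusted p = 0.0409). Its call held in 4 of the 16 fits that left out 1 library. Irf9, a transcription factor of interferon signalling, was the only one of 19 interferon and inflammation genes called, at 0.59 ± 0.15 (SE, adjusted p = 0.0389), also in 4 of those 16 fits. Of all tested genes 3.79% were called. The exact Wilcoxon test called neither Tnfrsf25 nor Irf9 (adjusted p = 0.198 and 0.165).

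Immediate early genes, which respond within minutes to stimulation, gave 1 call among 26, where 3.79% of all tested genes were called. Jun, a subunit of the AP-1 transcription factor, measured 8.95, 10.5 and 18.5 FPKM in controls and 16.3, 23.6 and 75.9 FPKM in heat, a change of 1.11 ± 0.25 (SE, adjusted p = 0.02), and 6 heated libraries were above the highest control. The fit over all 48 libraries did not call it (adjusted p = 0.0691). Fos, its partner, measured 1.17, 2.84 and 63.3 FPKM in controls and 0.751, 6.37 and 44.2 FPKM in heat, with control replicate 1 far above the other controls, and did not pass the test (0.43 ± 0.70 SE, adjusted p = 0.818). Its change was −1.65 in libraries numbered 1 to 3 and 1.68 in those numbered 4 to 8.

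The list of glucocorticoid receptor targets gave 3 rises among 22 members, where 2.37% of all genes rose, and no fall (median 0.20). That count depends on the members chosen. Rasd1, a dexamethasone-induced gene kept on another list, fell (−0.95 ± 0.21 SE, adjusted p = 0.0191). Pdk4, which inhibits pyruvate dehydrogenase, went from 1.48, 2.24 and 2.93 FPKM to 2.55, 4.24 and 6.96 FPKM, a change of 0.74 ± 0.14 (SE, adjusted p = 0.00671). Ddit4, an inhibitor of mTORC1, went from 33.0, 36.4 and 38.7 FPKM to 46.5, 55.8 and 91.4 FPKM, with separate groups and a change of 0.67 ± 0.11 (SE, adjusted p = 0.00255). Both the 48-library fit and the exact Wilcoxon test left Zbtb16 uncalled (adjusted p = 0.307 and 0.108), a transcription factor with a change of 0.58 ± 0.14 (SE, adjusted p = 0.0308); Zbtb16 was called in 7 of 16 fits without 1 library, and the 48-library fit also left Ddit4 uncalled (adjusted p = 0.102). Tsc22d3, another such target, stood at 0.46 ± 0.14 (SE, adjusted p = 0.0762). The receptor gene Nr3c1 was not called (−0.23 ± 0.17 SE, adjusted p = 0.544). No clock gene was called among 21 (median 0.13): Per2 stood at 0.82 ± 0.28 (SE, adjusted p = 0.124), from 3.35, 4.37 and 10.3 FPKM in controls to 2.89, 11.6 and 15.2 FPKM in heat, and Per1 at 0.20 ± 0.31 (SE, adjusted p = 0.811). With the term for library numbers 3 clock genes were called, Per2 among them (adjusted p = 0.0134), and so was Tsc22d3 (adjusted p = 0.0182).

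Other lists held a called member or a pair, where 3.79% of all tested genes were called. Counts near that share say little about a list. Doc2b, a calcium sensor of vesicle fusion, was the 1 of 28 exocytosis genes called, going from 0.628, 1.51 and 2.16 FPKM to 2.36, 3.38 and 5.57 FPKM with separate groups (0.90 ± 0.15 SE, adjusted p = 0.00226). Bcl6, a transcriptional repressor, was the 1 of 24 on the list of p53 targets and BCL2 family genes (0.56 ± 0.092 SE, adjusted p = 0.00241). Of 31 mRNA decay genes 2 rose, the CCR4-NOT subunits Cnot8 and Cnot4 (0.34 and 0.26, adjusted p = 0.0175 and 0.0285). Acvr2b, an activin receptor, rose by 0.44 ± 0.076 (SE, adjusted p = 0.00305) without overlap. The autophagy gene Atg14 rose by 0.33 and the protein kinase A subunit Prkar1b by 0.34 (adjusted p = 0.0296 and 0.0273). Cnot4, Atg14 and Prkar1b were each called in 10 of 16 fits without 1 library; leaving out control replicate 7 or heat replicate 4 ended all 3 calls.

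Both ribosomal RNAs of mitochondria were called higher and no mitochondrial mRNA was called; the difference between them was not tested. The large rRNA mt-Rnr2 was listed at 44.0, 55.0 and 81.0 FPKM in controls and 103, 174 and 487 FPKM in heat, separate groups with a change of 1.68 ± 0.25 (SE, adjusted p = 0.00115). The small rRNA mt-Rnr1 changed by 0.86 ± 0.17 (SE, adjusted p = 0.00852). Of the 13 mitochondrial mRNAs none was called and their median change was −0.22, with mt-Nd3, a subunit of complex I, at −0.49 ± 0.16 (SE, adjusted p = 0.101, and 0.0453 with the term for library numbers). None of 76 nuclear genes of oxidative phosphorylation was called either (median −0.03, Cox7a1 at 0.40, adjusted p = 0.057, and 0.0207 with that term). Libraries from total RNA can hold rRNA in varying amounts, and the part of rRNA removal in these values was not tested.

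Histone genes changed in both directions, 4 of 37 higher and 3 lower (median 0.18), where 2.37% and 1.42% of all genes were. The 4 risers were core histone genes of the Hist1 cluster, which are known as replication-dependent genes. Hist1h3g went from 0, 0.336 and 0.883 FPKM to 0.753, 1.66 and 4.49 FPKM, a change of 1.08 ± 0.22 (SE, adjusted p = 0.00974). Hist1h2ad, Hist1h4n and Hist1h3i rose by 1.20, 0.83 and 0.72 (adjusted p = 0.0496, 0.024 and 0.0145). Hist1h2ad held its call in 3 of 16 fits without 1 library, and sequences of these genes are alike. The fallers were H3f3b, which encodes the replacement histone H3.3, and the linker histones H1f0 and Hist1h1c. H3f3b measured 59.9, 73.1 and 86.3 FPKM in controls and 33.7, 44.5 and 47.7 FPKM in heat. All heated libraries were below all controls, and the change was −0.77 ± 0.098 (SE, adjusted p = 0.000415). H1f0 changed by −0.66 ± 0.15 (SE) and Hist1h1c by −0.47 ± 0.12 (SE, adjusted p = 0.0242 and 0.0417). The exact Wilcoxon test called neither, nor Hist1h4n (adjusted p = 0.108, 0.0834 and 0.0834). Of the 16 fits without 1 library 12 called H1f0, 4 Hist1h1c and 14 Hist1h4n; H1f0 was lost without control replicate 3 or 5 or heat replicate 4 or 5, and Hist1h4n without control replicate 3 or heat replicate 6.

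Of the 7 hormone genes only Prl was called. It measured 8.97, 20.3 and 44.5 FPKM in controls and 1.04, 4.66 and 18.0 FPKM in heated libraries. In 7 of 8 heated libraries it was below the lowest control, and heat replicate 3, the highest at 18.0, was inside the control range. The change was −1.90 ± 0.41 (SE, adjusted p = 0.0153), −1.60 in libraries numbered 1 to 3 and −2.07 in those numbered 4 to 8, and the call held without any 1 library. The low level of Prl in all libraries, given above, limits what this value says of lactotrophs. Pomc measured 2206, 27902 and 42020.5 FPKM in controls and 6766, 46561 and 99264 FPKM in heat, a change of 0.87 ± 0.63 (SE) that did not pass the test (adjusted p = 0.534). Lhb and Cga stood at −0.78 ± 0.26 (SE) and −0.51 ± 0.21 (SE, adjusted p = 0.119 and 0.211); Lhb passed in the fit with a term for the library numbers (adjusted p = 0.0452) and in the 48-library fit (adjusted p = 0.0209). Some of the exon bases of both, 20.4% and 32.0%, are shared with other annotated genes. Gh, Fshb and Tshb stood at 0.22 ± 0.45 (SE), 0.30 ± 0.26 (SE) and −0.12 ± 0.22 (SE, adjusted p = 0.854, 0.614 and 0.836), each with overlapping groups.

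**Figure D4:**
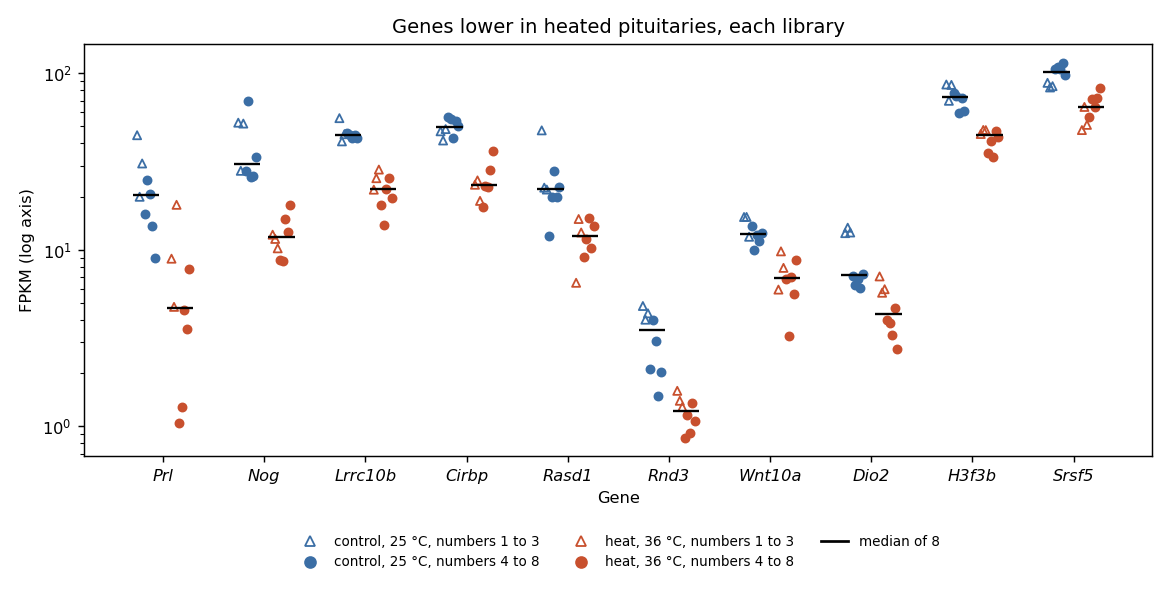
FPKM on a log axis of 10 genes called lower, in every pituitary library, 8 control (blue) and 8 heated (orange); open triangles are libraries numbered 1 to 3, filled circles those numbered 4 to 8, and bars are medians. Nog fell from 26.0 to 69.7 in controls to 8.63 to 17.9 in heat, and Prl had 1 heated library, at 18.0, within the control range.

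Intermediate lobe genes had wide ranges in both groups. None of 7 melanotroph markers was called, and their median change was 0.56. Pax7, the transcription factor that sets melanotroph identity, measured 0.0639, 7.63 and 12.4 FPKM in controls and 0.895, 11.1 and 20.9 FPKM in heat (0.46, adjusted p = 0.709). Pcsk2, the convertase that cuts Pomc into melanocyte-stimulating hormone, stood at 0.57 and Tbx19, a T-box factor of Pomc cells, at 0.56 (adjusted p = 0.661 and 0.452). The lowest control of these 3 genes was replicate 1 in each case. Drd2, the dopamine receptor that restrains prolactin and melanotroph secretion, stood at 0.38 ± 0.19 (SE, adjusted p = 0.317). The summed level of the melanotroph markers ran from 2257 to 42271 FPKM in controls and from 6838 to 99783 in heat, which is mostly Pomc. With a term for the intermediate lobe score 589 genes were called, 376 higher and 213 lower. The median change was 0.25 over pituicyte and astrocyte markers (0 of 7 tested called), 0.01 over hypothalamic neuron markers (0 of 9), −0.50 over thyrotroph and gonadotroph markers (1 of 9 called, lower) and −0.0089 over endothelial markers (0 of 8). Over somatotroph and lactotroph markers the median was −0.11. Of its 7 tested members 2 were called, Prl and Wnt10a, both lower, where 1.42% of all genes fell. The posterior lobe genes Avp, Oxt and Rax had higher medians in heat, 63.2, 85.7 and 6.56 FPKM, than in controls, 25.6, 32.2 and 2.18 FPKM, with wide overlap and no call (adjusted p = 0.529, 0.641 and 0.345). The summed thyrotroph and gonadotroph markers had a median of 1334 FPKM in controls and 939.6 FPKM in heat. The part of these cell types in the results was not tested.

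The calls among receptors and transcription factors of the anterior lobe were falls, 1 of 20 receptors and 2 of 26 lineage factors, where 1.42% of all genes fell. Isl1, a LIM factor of gonadotrophs and thyrotrophs, went from 1.83, 2.14 and 2.41 FPKM to 1.15, 1.51 and 1.84 FPKM (−0.34 ± 0.073 SE, adjusted p = 0.016). Insm1, a factor of endocrine and neuroendocrine cells, fell by 0.45 on the log2 scale (adjusted p = 0.044), a call held in 5 of 16 fits without 1 library. The lineage factors had a median of −0.08, and Pou1f1 stood at −0.11 ± 0.17 (SE, adjusted p = 0.81). Sstr3, a somatostatin receptor, went from 5.98, 6.98 and 9.25 FPKM to 4.18, 4.87 and 6.40 FPKM (−0.46 ± 0.088 SE, adjusted p = 0.00676). Another 20 receptors on the list were below the filter. Crhr1, the receptor of corticotropin-releasing hormone, stood at −0.16 ± 0.11 (SE, adjusted p = 0.524). Of 21 genes of prohormone processing 0 were called; Pcsk1n, an inhibitor of prohormone convertase, stood at 1.0 ± 0.31 (SE, adjusted p = 0.0884), and passed with the term for library numbers (adjusted p = 0.00116). Dio2, the deiodinase that activates thyroid hormone, fell from 6.08, 7.18 and 13.3 FPKM to 2.75, 4.35 and 7.06 FPKM (−0.80 ± 0.19 SE, adjusted p = 0.0261); libraries 1 to 3 were higher than libraries 4 to 8 in both groups, and the call held in 10 of 16 fits without 1 library.

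Of signalling genes that fell, Nog had the largest change. It encodes noggin, a secreted protein that binds and blocks bone morphogenetic proteins. Nog measured 26.0, 30.7 and 69.7 FPKM in controls and 8.63, 11.8 and 17.9 FPKM in heat. All 8 heated libraries were below all controls. The change was −1.57 ± 0.21 (SE, adjusted p = 0.00051), and it was −1.82 in libraries numbered 1 to 3 and −1.42 in those numbered 4 to 8. Nog and Acvr2b were the 2 calls among 33 genes of BMP and activin signalling, whose median was 0.01, where 3.79% of all tested genes were called. Wnt10a, a Wnt ligand, went from 9.97, 12.3 and 15.3 FPKM to 3.26, 6.94 and 9.79 FPKM without overlap (−0.84 ± 0.15 SE, adjusted p = 0.005). None of 18 genes on the Notch and Wnt list was called, with Jag2 at 0.43 (adjusted p = 0.197, and 0.00231 with the term for library numbers). Rasd1, a dexamethasone-induced Ras protein, went from 12.0, 22.2 and 47.4 FPKM to 6.50, 12.0 and 15.0 FPKM (−0.95 ± 0.21 SE, adjusted p = 0.0191). Rnd3, an atypical small GTPase, went from 1.49, 3.51 and 4.80 FPKM to 0.863, 1.22 and 1.59 FPKM, with groups that barely met (−0.89 ± 0.16 SE, adjusted p = 0.00456). Bdkrb2, the bradykinin B2 receptor, and Dusp10, a phosphatase of p38 and JNK, changed by −0.83 ± 0.19 (SE) and −0.65 ± 0.11 (SE, adjusted p = 0.0231 and 0.00289); Bdkrb2 was not called without heat replicate 4.

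Of the RNA-binding genes that respond to temperature, Cirbp was called. Cirbp, the cold-inducible RNA-binding protein, which is known to fall with warming, measured 41.6, 49.4 and 56.5 FPKM in controls and 17.4, 23.1 and 36.3 FPKM in heat. The groups were separate, with a change of −1.02 ± 0.12 (SE, adjusted p = 0.000248) that was −1.0 in libraries numbered 1 to 3 and −1.03 in those numbered 4 to 8. Its relative Rbm3, also cold-inducible, was listed at 11.0, 12.8 and 15.2 FPKM and 9.84, 11.7 and 14.6 FPKM and was not called (−0.12 ± 0.078 SE, adjusted p = 0.489). Cirbp was the 1 of 6 genes called on its list, which also holds CLK kinases. Of all tested genes 3.79% were called and 1.42% were called lower. Srsf5 was the 1 of 19 SR splicing factors called: it went from 83.0, 102 and 115 FPKM to 47.6, 64.5 and 82.0 FPKM (−0.63 ± 0.11 SE, adjusted p = 0.00357). Hnrnpd, the AU-rich element binding protein AUF1, was the 1 of 20 hnRNP genes, from 10.3, 11.0 and 12.3 FPKM to 6.90, 7.57 and 9.04 FPKM (−0.49 ± 0.06 SE, adjusted p = 0.000262). Both had separate groups.

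The remaining large falls were of mixed function. For the list counts given here, 3.79% of all tested genes were called and 1.42% were called lower. Lrrc10b measured 41.1, 44.8 and 55.6 FPKM in controls and 13.9, 22.0 and 28.5 FPKM in heat, with separate groups and a change of −1.04 ± 0.12 (SE, adjusted p = 0.000133). Vinac1 had one of the smallest adjusted p-values, 5.03e-05, with a change of −0.66 ± 0.064 (SE) at a level of 1.39, 1.67 and 1.92 FPKM in controls and 0.485, 0.678 and 0.856 FPKM in heat. Mir22hg, the host transcript of a microRNA, fell by 0.78, Wsb1, an adaptor of a ubiquitin ligase, by 0.73, Klhdc9 by 0.71 and Dgat2, an enzyme of triglyceride synthesis, by 0.62 on the log2 scale, all 4 without overlap. Of the exon bases of Klhdc9, 34.3% are shared with another annotated gene, so its level is uncertain. Zfp941 and Tipin, a protein of the replication fork, fell by 0.69 and 0.67 with overlapping groups. Of 15 replication and mitosis genes Mcm3, a helicase subunit, was the 1 called (−0.31 ± 0.073 SE, adjusted p = 0.0262). Nqo1, a quinone reductase, was the 1 of 26 NRF2 and antioxidant genes called, and it fell (−0.55 ± 0.13 SE, adjusted p = 0.0261). Eif2b3, a subunit of the exchange factor of eIF2, was the 1 of 61 translation factors (−0.25, adjusted p = 0.0197), and Snhg15 the 1 of 18 nuclear noncoding RNAs (−0.35, adjusted p = 0.0382). The 48-library fit left Mcm3, Eif2b3, Snhg15 and Insm1 uncalled, with adjusted p of 0.156, 0.175, 0.133 and 0.129. Of 16 fits without 1 library 10 called Mcm3, 7 Snhg15 and 14 Nqo1, the last lost without control replicate 2 or heat replicate 7. The exact Wilcoxon test left Snhg15 and Insm1 uncalled (adjusted p = 0.0834 and 0.0834).

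Lists with no called member included 80 cytosolic ribosomal proteins (median 0.02, Rpl7l1 at 0.11, adjusted p = 0.509) and 65 ion channels (median 0.07, Kcnj3 at 0.30, adjusted p = 0.0778). They also included 24 genes of hypoxia and glycolysis (median −0.05, Pdk1 at −0.34, adjusted p = 0.0575), 23 of cholesterol synthesis (median −0.13) and 11 metallothioneins and zinc transporters (median −0.04, Mt2 at −0.37, adjusted p = 0.309). Pdk1 passed in the 48-library fit (adjusted p = 0.04). The term for library numbers called Kcnj3 and Pdk1 (adjusted p = 0.0269 and 0.00614), with 4 rises and 1 fall among the ion channels and 4 falls among the cholesterol genes.

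Differences between tissues were tested in 1 fit over all 48 libraries. The heat change of the pituitary differed from that of the hypothalamus in 23 of 14884 genes (0.155%) and from that of the mammary gland in 332 (2.23%). The fit does not take into account that a dam may have given all 3 tissues. Nog, at 0.058 log2 units in hypothalamus and 0.26 in mammary gland, differed from both (adjusted p = 0.000137 and 5.51e-06). Lrrc10b, Rnd3, Wnt10a, Bdkrb2 and Dio2 also had a lower heat change in pituitary than in either tissue, and Plekhh1 a higher one. Dio2 stood at 0.61 in hypothalamus, and Bdkrb2 at −0.00083 in hypothalamus and −0.016 in mammary gland. The levels of these genes in the other tissues are not given here. A gene near 0 FPKM there could hardly fall on this scale, so these differences may reflect level. Prl differed from both as well, but it was listed at 0 in all libraries of those tissues, so this says only that they hold no measured Prl. Of the chaperones named here none differed from either tissue at the threshold. Hspa1b changed by 2.70 in hypothalamus and 5.49 in mammary gland, differences of 2.90 ± 0.67 and 0.11 ± 0.67 (SE) from pituitary (adjusted p = 0.0501 and 0.976). The mammary gland changed more than the pituitary in Ddit4, Bcl6, Tsc22d3, Herpud1 and P4ha1, and Rasd1 went the other way there, at 1.45 log2 units.

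**Figure D5:**
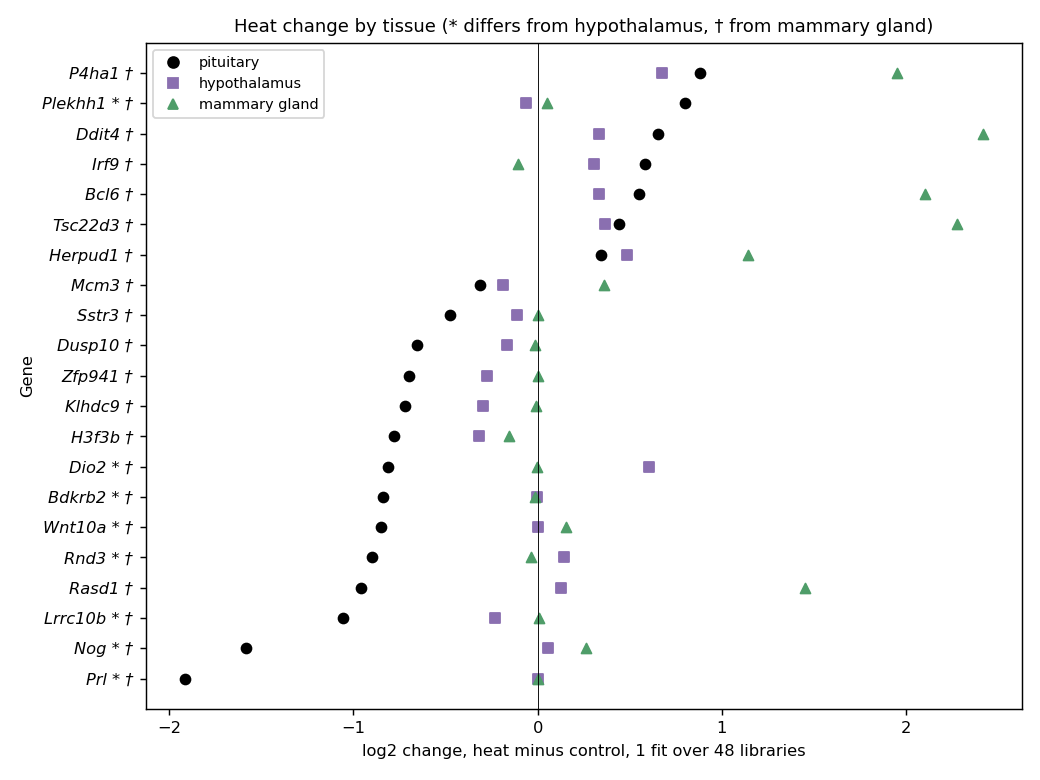
Heat change (log2, heat minus control) in pituitary (black circles), hypothalamus (violet squares) and mammary gland (green triangles) of the named genes whose pituitary change differed from another tissue by the contrast in 1 limma fit over 48 libraries. Asterisks mark a difference from hypothalamus and daggers one from mammary gland; Nog lies at −1.58 in pituitary and at 0.058 and 0.26 in the others.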

How the data were processed

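Total RNA of whole pituitaries was sequenced, and the authors deposited FPKM per gene and library, made from reads aligned with HISAT2 2.0.5 and counted with featureCounts 1.5.0-p3, per the submitters' processing notes, which also name DESeq2 1.16.1 and the mouse build mm9. The lengths of GENCODE M21 genes (GRCm38) turned the FPKM back into fragments, and 96.4 to 97.0% of low values (below 50) were then within 0.02 of a whole number; depths were read from these, and no coordinates were taken from the files because the builds differ. FPKM were divided by each library's median ratio to the geometric mean (0.975 to 1.02) and limma 3.58.1 in R 4.3.3 was run on log2(FPKM + 1) with a trended prior, 8 heat against 8 control libraries, after a filter at a mean FPKM of 1. On simulated data with independent noise for each gene, the fit recovered 49% of changes of 0.5 and 90% of changes of 1. Of its calls there 4.79% were false. That noise lacked the structure shared between the real libraries, so it does not measure the errors of the calls given here. Contrasts between tissues used 1 fit over 48 libraries. Floors cover counting error only. Exon bases shared with another annotated gene also make the levels of Rbm14 (21.0%), Hist1h2ad (24.1%), Kcnj3 (31.1%) and Mt2 (73.5%) uncertain.

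Genes were named by rule: the 20 largest rises and falls, leaving out unnamed and predicted genes, pseudogenes, small RNAs and receptor segments, the 10 smallest adjusted p-values, from each of 42 lists the 3 called members of largest change or the 1 of smallest adjusted p, and a fixed set. Further called members of the chaperone and histone lists, mt-Rnr1 and uncalled members given for contrast were added after their values were seen. The members, lists and sets of library numbers were chosen with earlier results of these data known. Alternatives were other scalings, pseudocounts, filters, weights and priors, an exact Wilcoxon test, terms for library numbers, lobe score and replicate, libraries left out, all 48 libraries in 1 fit and limma-voom on recovered fragments. One gene that the rule named is not reported here. Promoter windows came from RefSeq. Python 3.11.15 did the rest.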

Additional observations from a re-analysis of the deposited data

Results flagged for a closer look

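Single libraries stood far from the others of their group, by Dixon's ratio on the log2 scale, in 14 of the 212 groups examined, and chance alone marks about 1 in 20. Control replicate 1 accounts for 8 of them. It was the lowest control for Pomc at 2206 FPKM (next 14548), Pcsk2 at 2.14 (18.2), Pax7 at 0.0639 (5.40), Tbx19 at 2.92 (9.88) and Hist1h2ad at 0.0727 (3.18). The same library was the highest control for Fos at 63.3 FPKM (7.72), Lrrc10b at 55.6 (45.9) and Dgat2 at 12.3 (8.90). The others were Hspa8 in control replicate 6 at 96.5 FPKM, Ddit3 in control replicate 4 at 32.2, Ddit4 in heat replicate 4 at 91.4, Dgat2 in heat replicate 5 at 3.50, Zfand2a in heat replicate 8 at 5.44 and Crhr1 in heat replicate 4 at 1.43.

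The pituitary change differed between tissues in 8 named genes against hypothalamus and 21 against mammary gland, by limma contrasts over 48 libraries. Against hypothalamus the differences, pituitary minus hypothalamus in log2 units, were −1.91 for Prl, −1.64 for Nog, −1.42 for Dio2, −1.04 for Rnd3, −0.86 for Wnt10a, −0.84 for Bdkrb2, −0.83 for Lrrc10b and 0.87 for Plekhh1, with adjusted p from 0.000137 to 0.0173. Against mammary gland they were −2.41 for Rasd1, −1.91 for Prl, −1.84 for Nog, −1.83 for Tsc22d3, −1.76 for Ddit4, −1.55 for Bcl6, −1.07 for P4ha1, −1.07 for Lrrc10b, −1.01 for Wnt10a, −0.86 for Rnd3 and −0.82 for Bdkrb2. Smaller ones were −0.81 for Dio2, −0.79 for Herpud1, −0.71 for Klhdc9, −0.70 for Zfp941, −0.67 for Mcm3, −0.64 for Dusp10, −0.63 for H3f3b, −0.48 for Sstr3, 0.69 for Irf9 and 0.75 for Plekhh1, and the adjusted p of all 21 ran from 7.48e-07 to 0.047. Prl is listed at 0 in both other tissues, and whether the remaining differences come from cell types that only the pituitary holds was not tested.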

How the results depend on the processing

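The 534 calls, 334 higher and 200 lower, varied with the settings. Array weights gave 1398 (809 higher, 589 lower), a term for library numbers 1721 (1025 and 696), libraries 4 to 8 alone 1399 (867 and 532) and libraries 1 to 3 alone 0 of either direction. A filter of 5 FPKM gave 214 (148 and 66), and a minimum absolute log2 change of 1 gave 42 (37 and 5). The 48-library fit gave 405 falls beside 389 rises, so that 49.0% of its calls were rises against 62.5%. Leaving out 1 library gave 331 to 910 calls, 211 to 539 higher and 120 to 371 lower. The other settings gave 392 (no filter) to 643 calls (without control replicate 1 and heat replicate 3), and limma-voom 477, of which 433 were among the 534. The 23 differences from hypothalamus became 80 with the term for library numbers and 4 with a filter of 5, and the 332 from mammary gland 963 and 149.

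With the replicate number as a block 1213 genes were called (759 higher, 454 lower), with 40 differences from hypothalamus and 606 from mammary gland. Same-numbered libraries deviated together with a correlation of −0.02 to 0.50, under 0.1 for replicate 4, and 1 of 8 controls correlated best with its own number, so the block was not taken as a pairing; that libraries 1 to 3 stood apart from 4 to 8 is given above.

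Of 106 named genes 72 were called. No called gene changed direction. All 72 lost their call in libraries 1 to 3 alone, 52 kept it in every other setting that tested them and leaves out no single library (the filter of 5 FPKM tested 50 of the 72), and 56 kept it in all 16 fits without 1 library. Removing the filter on low values ended 18 calls. More genes were then tested, and the prior was refitted over them. The cause of these and of the other losses was not tested. The sign of uncalled genes differed in 23 cases, over 10 fits.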

Other observations

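Some called genes outside the rule, chosen after their values were seen, also differed from hypothalamus. Nmt2, an N-myristoyltransferase, changed by 0.92 ± 0.12 (SE, adjusted p = 0.000415) in pituitary and by 0.16 in hypothalamus (adjusted p of the difference = 0.00378). Rad51c, of homologous recombination, changed by 0.60 ± 0.083 (SE, adjusted p = 0.000693) and 0.12 (adjusted p of the difference = 0.0354), and Ina, the neurofilament protein alpha-internexin, by 0.35 ± 0.065 (SE, adjusted p = 0.00592) and −0.015 (adjusted p of the difference = 0.00754). Alg13, a subunit of a glycosyltransferase of N-glycan synthesis, fell by 0.34 on the log2 scale in pituitary (adjusted p = 0.00527) and stood at 0.07 in hypothalamus (adjusted p of the difference = 0.0107). Slc5a3, a transporter of the osmolyte myo-inositol, was also chosen after its values were seen, and a difference from hypothalamus is not given for it. In pituitary it measured 1.29, 1.92 and 2.22 FPKM in controls and 2.39, 5.09 and 9.32 FPKM in heat, with separate groups and a change of 1.06 ± 0.17 (SE, adjusted p = 0.0017).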
